A study of Mus musculus with 36 samples.

Results

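The members described here are 378 Argonaute peaks that carry a seed site for the family of microRNAs that comprises miR-17, miR-20, miR-93 and miR-106, among 7585 annotated peaks and 7730 merged peaks in mouse colonic tumours. A peak was taken as a member where the authors' annotation lists that family under an 8mer site or under a 7mer-m8 site. An 8mer pairs with bases 2 to 8 of the miRNA and has an A opposite base 1, and a 7mer-m8 pairs with bases 2 to 8 without that A. The rule itself reads the annotation and no measured level. The 378 peaks lie on 361 genes, of which 346 hold 1 such peak, 13 hold 2, and Ago2 and Tmcc3 hold 3 each.

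All mice were C57BL/6 and carried Halo-Ago2/+, Villin-CreER/+ and Apc(fl/fl), and the second group carried K-Ras-G12D/+ in addition. Tumours were started in animals 8 to 12 weeks old with an enema of 200.0 µl of 4-hydroxytamoxifen at 5 mg/ml in ethanol, and were taken when the animals were moribund. The tissue was irradiated 3 times with UV at 400 mJ/cm2, Halo-tagged Ago2 was pulled down, and the bound miRNAs and mRNA fragments were sequenced as separate libraries (HEAP, a CLIP-type assay). There were 12 tumours, 6 with wild-type K-Ras (WT) and 6 with K-Ras G12D, with 3 of each genotype in batch 1 (replicates 1 to 3) and 3 in batch 2 (replicates 4 to 6). Villin-CreER is active in gut epithelium, so the floxed Apc alleles were removed in epithelial cells. The labels do not say how the K-Ras-G12D allele is switched on, and they describe no step that purified one cell type. Whether every numbered tumour came from its own mouse is not in the labels, and the p-values below cover the spread between these 12 tumours, whatever its source.

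The miR-17 family is made by 3 related gene clusters, miR-17-92, miR-106b-25 and miR-106a-363. The first is a transcriptional target of Myc and was among the earliest miRNA loci to be called oncogenic. Family members share a seed and therefore a set of possible target messages, and published targets include inhibitors of the cell cycle, TGF-beta receptors and autophagy genes. Loss of Apc switches on Wnt signalling, of which Myc is a target in the gut.

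The 6 mature family miRNAs are shown because their identical seed defines the site that chose the peaks. The seed, bases 2 to 8, is in capitals, and the letters come from RefSeq (GRCm38.p6).
miR-17-5p: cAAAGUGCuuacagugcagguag
miR-20a-5p: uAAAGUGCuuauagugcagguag
miR-93-5p: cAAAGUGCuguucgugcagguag
miR-106b-5p: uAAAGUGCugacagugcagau
miR-20b-5p: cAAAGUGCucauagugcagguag
miR-106a-5p: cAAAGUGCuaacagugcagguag
miR-17-5p and miR-20a-5p lie on chromosome 14, miR-93-5p and miR-106b-5p on chromosome 5, and miR-20b-5p and miR-106a-5p on chromosome X. The site that pairs with this seed reads GCACTTT in DNA letters, and the 8mer reads GCACTTTA.

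The sites of 2 other families overlap these letters, which bears on how the member peaks can be assigned. The miR-19 family, also made by the miR-17-92 cluster, has its seed in capitals in the first line, and the family of miR-130 and miR-301, called the miR-130 family below, in the second.
miR-19b-3p: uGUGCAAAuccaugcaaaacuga
miR-130a-3p: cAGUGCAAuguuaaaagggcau
The miR-19 site is TTTGCAC and the miR-130 family site is TTGCACT. The miR-19 site ends in the first 4 letters of the miR-17 site and the miR-130 family site in the first 5, so the 10 letters TTTGCACTTT hold all 3 sites. Of the 378 members, 58 (15.3%) also had a miR-130 family site, against 1.07% of the other annotated peaks, and 41 (10.8%) had a miR-19 site, against 2.07%. One or both were present in 69 members (18.3%) and both in 30. Which miRNA guided Ago2 to such a peak cannot be told apart from the peak alone, and whether the sites overlap within each peak was not tested.

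Sites in 2 members could be read from the RefSeq promoter sequences and show what the annotation refers to. Each is printed 5′ to 3′ on the strand of the gene with the site in capitals, which in the 8mer includes the A opposite base 1, and positions are those of the 7 paired letters. In Sidt1 the site lies in the 5′ UTR on the minus strand at chr16:44332985-44332991 (GRCm38.p6), and in Arl14 in the 5′ UTR on the plus strand at chr3:69222422-69222428.
Sidt1 7mer-m8: gcagctagagtGCACTTTcgtttgacgtg
Arl14 8mer: tgttcactgtgGCACTTTActctcttttc
Both sites match the type that the authors' annotation gives them. The Sidt1 peak had a mean of 12.8 normalised counts over the 12 mRNA libraries and the Arl14 peak 24.0. A normalised count is the number of reads in a peak divided by the library's size factor, and all levels below are in this unit.

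By number of site peaks the family ranked 5 among 88 annotated families, after let-7 with 684 peaks, miR-15/16 with 401, miR-200/429 with 380 and miR-29 with 379. The members held 181 peaks with an 8mer alone, 194 with a 7mer-m8 alone and 3 with both, on Epha4, Tmem135 and Ero1l. In 213 members (56.3%) the peak was in a 3′ UTR, against 51.9% of all annotated peaks. Exons held 81 members (21.4%, against 32.2%), introns 74 (19.6%, against 12.1%) and 5′ UTRs 10 (2.65%, against 3.74%). Members were thus more often intronic and less often exonic than annotated peaks as a whole, as counts with no test. Their median width was 57 bases, against 56 for all annotated peaks.

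The peaks were called per genotype and then merged by the authors. Of the members, 146 (38.6%) were in the lists of both genotypes, against 26.2% of annotated peaks, 230 (60.8%) in the G12D list alone, and 2 in the WT list alone. The G12D list was the longer one throughout, and 71.9% of all annotated peaks were in it alone. The lists were made separately, so presence in 1 list alone is no test of a difference in level. Recovered read totals over the peaks ran from 30607 to 974013 per mRNA library, with WT replicates 5 and 6 the lowest and the other 10 between 125384 and 974013. In WT replicate 5, 56.1% of the members had no read, in WT replicate 6 30.7%, and in each other library at most 1.59%. Counts of calls and median fold changes are given with and without these 2 libraries, as are the fold changes of the peaks that moved most with them.

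The labelled tissue was compared with marker lists. Of 12 epithelial marker genes, 9 held a peak, among them Epcam, Cdh1, Krt8 and Vil1, and the epithelial miR-200c-3p, miR-194-5p and miR-192-5p ranked 2, 4 and 31 among the miRNAs. Of 8 fibroblast and smooth muscle genes, 3 held a peak (Col1a1, Col1a2 and Col3a1), and of the leukocyte and endothelial lists 0 of 8 and 0 of 5 did. Their miRNAs were present all the same: the leukocyte miR-142a-3p ranked 62 with a mean of 1296 and miR-223-3p 251, the muscle and fibroblast miR-133a-3p, miR-143-3p and miR-145a-5p 93, 147 and 174, and the endothelial miR-126a-3p 160. Of these 9 marker miRNAs, miR-133a-3p had medians of 453 in WT (191 to 1056) and 194.8 in G12D (139.8 to 328), a log2 fold change of −1.13 ± 0.34 (SE, adjusted p = 0.0857 in limma and 0.0136 in DESeq2). The part that other cell types have in the results below was not tested. None of these marker genes held a miR-17 family site peak. In bulk tumour, fewer cells of a type and less RNA per cell cannot be told apart, and a peak's signal combines the amount of the mRNA with how much of it is bound.

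Of the 6 family miRNAs 4 were abundant in the pulldown and did not differ between genotypes beyond the spread between tumours. Grouped by seed, AAAGUGC ranked 6 of 435 seeds, with a mean summed level of 18143 normalised counts, next to the miR-19 seed at rank 5. This ranking covers the 517 of 596 miRNAs whose names matched a RefSeq mature miRNA. miR-20a-5p gave 34.5% of the family's sum, miR-93-5p 31.4%, miR-17-5p 25.2% and miR-106b-5p 8.87%. The X-linked pair was scarce, with miR-106a-5p at 0.0871% and miR-20b-5p at 0.0317%. The family was thus supplied almost wholly by the clusters on chromosomes 14 and 5.

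miR-20a-5p ran from 4884 through a median of 6001 to 7899 in WT tumours and from 5400 through 6205 to 7789 in G12D tumours. The 2 ranges overlap nearly throughout, with a log2 fold change of 0.07 ± 0.08 (SE, 6 against 6, adjusted p = 0.650, limma). miR-17-5p, made from the same transcript, ran from 3478 through 4300 to 6066 in WT and from 3704 through 4529 to 5835 in G12D (log2 fold change 0.04 ± 0.08, adjusted p = 0.823, limma). miR-93-5p ran from 4125 through 5864 to 8125 in WT and from 4679 through 5431 to 6304 in G12D (log2 fold change −0.10 ± 0.10, adjusted p = 0.622, limma). All 3 overlapped between genotypes, and within each genotype every batch 1 tumour lay above every batch 2 tumour.

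miR-106b-5p had medians of 1697 in WT (1067 to 2301) and 1265 in G12D (874 to 2592), with a log2 fold change of −0.30 ± 0.17 (adjusted p = 0.400, limma). The difference was −0.04 in batch 1 and −0.55 in batch 2. miR-20b-5p was under the filter for the test, with 2.23 to 13.4 in WT (median 8.87) and 0 to 6.41 in G12D (median 2.31). Fitted with no filter, its log2 fold change was −1.46 ± 0.45 (adjusted p = 0.117, limma). In the miRNA libraries 1 read was worth 0.712 to 1.55, so each of these values rests on a low read count. None of the 5 family miRNAs tested was called, where 1.76% of 284 tested miRNAs were called higher and 2.11% lower. At an unadjusted p under 0.05 there was none among the 5 either, where 8.8% of tested miRNAs were higher and 8.8% lower, and DESeq2 called none of them, where it called 3.55% higher and 6.03% lower.

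Their sum was 18301 ± 3385 normalised counts (SD, n = 6) in WT tumours and 17985 ± 3068 (SD, n = 6) in G12D tumours, a difference of −316.0 (exact permutation test, two-sided, p = 0.846). Batch moved the sum more than genotype did: the 6 batch 1 tumours lay between 18831 and 23844 and the 6 batch 2 tumours between 14179 and 16559. As a share of all miRNA signal in a library, the family took 4.54 to 5.30% in batch 1 and 4.33 to 4.74% in batch 2. The batches overlap on that measure, so their clean split depends on the scaling. Within batch 1 the genotype difference was −365.4 and within batch 2 −266.5 (exact permutation p = 0.900 in each, where 3 against 3 cannot go below 0.100). Of the miRNAs made in the same transcripts, miR-18a-5p was the one nearest to a call, with 891 to 1329 (median 1181) in WT and 1371 to 1573 (median 1520) in G12D. Every G12D tumour lay above every WT tumour, with a log2 fold change of 0.41 ± 0.11 (adjusted p = 0.0572 in limma and 0.0104 in DESeq2).

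**Figure D1:**
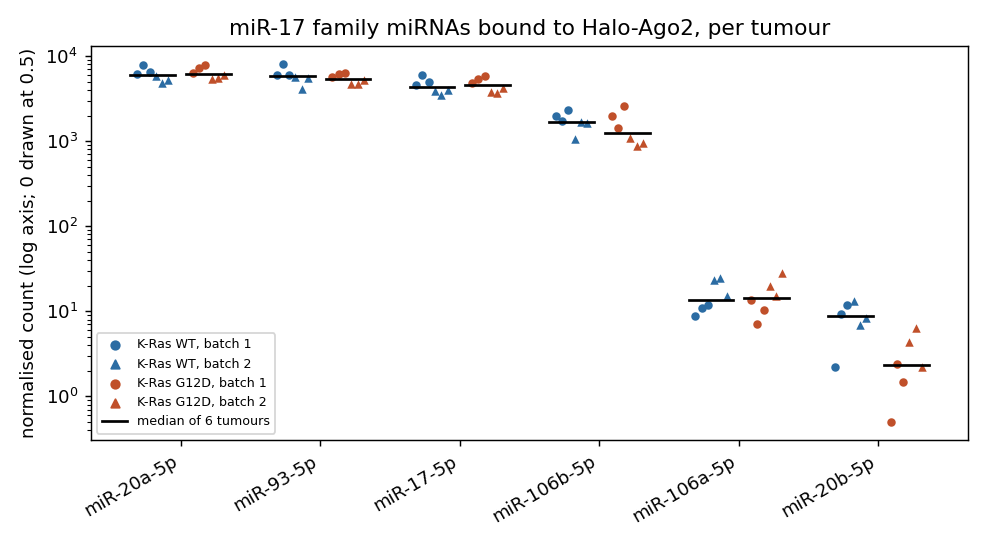
Normalised counts of the 6 family miRNAs (log axis) in each of the 12 tumours, coloured by K-Ras genotype, with circles for batch 1, triangles for batch 2 and a bar at the median of 6 tumours. The 4 abundant miRNAs overlap between genotypes, with medians from 1265 to 6205, while miR-106a-5p and miR-20b-5p stay below 30.

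Site peaks carried more signal than the average peak. Their mean over the 12 libraries had a median of 24.3 over the 378 members, against 18.6 over all 7730 peaks. In 46 members (12.2%) the mean was at least 100.0, against 7.19% of all peaks. The members' median was above that of all peaks in 11 of 12 libraries and equal to it, at 0, in WT replicate 5. Site peaks of related families gave like values, with medians of 23.4 for miR-19, 23.0 for miR-25/92 and 22.6 for let-7, so the higher level is not particular to the miR-17 family.

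The level followed the type of site only weakly. Peaks with an 8mer had a median of 27.8 (184 peaks), those with a 7mer-m8 and no 8mer 23.2 (194 peaks), those with a 7mer-A1 site and neither of these 19.8 (47 peaks), and those with a 6mer alone 19.9 (86 peaks). Peaks with no 8mer or 7mer-m8 site of any family had a median of 16.3 (2647 peaks). Library by library the 8mer median was above the 7mer-m8 median in 6 of 12, equal in 3 and below in 3, so the order of the 2 strong types did not hold throughout.

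Together the members took 6.57 ± 1.81% of the signal over all peaks in WT tumours (SD, n = 6) and 7.20 ± 0.87% in G12D tumours (SD, n = 6). WT replicate 5 was the lowest at 3.15%, and without WT replicates 5 and 6 the WT share was 7.09 ± 0.79% (SD, n = 4). The ranges overlap, from 6.25% to 8.08% in the 4 remaining WT tumours and from 6.47% to 8.41% in G12D tumours. Within genes the site peak was often the main one: of 216 member peaks on genes with at least 2 annotated peaks, 112 (51.9%) were the highest of their gene. The share was 63 of 126 for miR-19 site peaks, 47.2% for let-7 and 42.9% for miR-25/92 site peaks. It was 31.6% for all annotated peaks and 24.3% for peaks with no 8mer or 7mer-m8 site. The sets were not matched for the number of peaks per gene, on which this share depends.

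**Figure D2:**
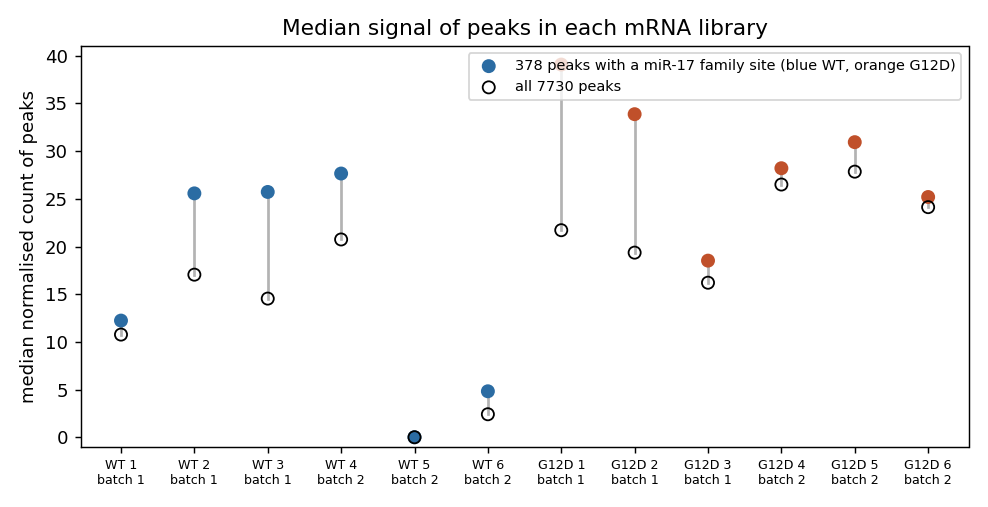
Median normalised count in each mRNA library for the 378 site peaks (filled, blue for WT and orange for G12D) and for all 7730 peaks (open circles). The filled point is above the open one in 11 libraries, with the widest gaps in WT replicates 2 and 3 and G12D replicates 1 and 2, and both are at 0 in WT replicate 5.

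Among intronic peaks the site peaks stood apart in some libraries and not in others, and the split did not follow genotype. In WT replicates 1 to 4 the 74 intronic members had medians of 10.8, 29.4, 35.8 and 23.9, and the other intronic peaks 7.34, 7.58, 7.83 and 17.3. In G12D replicates 1 to 6 the intronic members had medians of 35.7, 40.1, 19.7, 10.3, 24.2 and 14.2, and the other intronic peaks 9.17, 8.30, 16.2, 23.1, 25.3 and 23.4. The ratio of the 2 medians was thus 3.87 and 4.57 in WT replicates 2 and 3 and 3.89 and 4.83 in G12D replicates 1 and 2, whereas it was 1.47 in WT replicate 1 and 1.21 in G12D replicate 3, the other 2 tumours of batch 1. In batch 2 it was 1.39 in WT replicate 4 and 0.444, 0.959 and 0.606 in G12D replicates 4 to 6, so there the G12D intronic members lay below other intronic peaks. In WT replicates 5 and 6 both medians were 0.

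Intronic peaks with a let-7 site had medians of 22.7 and 23.5 in WT replicates 2 and 3 and 27.5 and 25.6 in G12D replicates 1 and 2, also above the other intronic peaks there, and 14.5, 28.9 and 19.9 in G12D replicates 4 to 6. Intronic peaks with no 8mer or 7mer-m8 site of any family had medians of 3.79 and 3.35 in those WT libraries and 1.93 and 2.77 in those G12D libraries, against 29.1, 21.9 and 25.5 in G12D replicates 4 to 6. A high level in those 4 libraries is therefore not particular to the miR-17 family. The highest intronic member, on Spin1, a chromatin reader gene, had a mean of 96.7, and none of the 74 reached 100.0, where 12 of 921 annotated intronic peaks did.

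**Figure D3:**
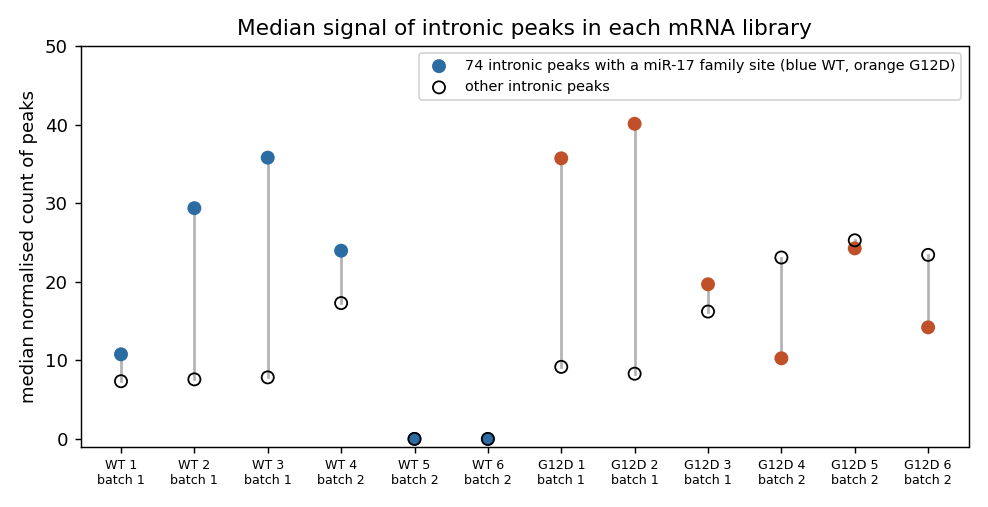
Median normalised count in each mRNA library for the 74 intronic site peaks (filled, blue for WT and orange for G12D) and for the other intronic peaks (open circles). The filled points are far above the open ones in WT replicates 2 and 3 and G12D replicates 1 and 2, and below them in G12D replicates 4 to 6.

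The 10 strongest site peaks, by mean over the 12 mRNA libraries, were on Ccdc71l, Tnrc6b, Ereg, Tbc1d30, Tgoln1, Map3k9, Ccnd1, Trp53inp1, Ppp1r15b and Unc5b. Positions are given as in the authors' files, whose processing notes name mm10 and GRCm38. The Ccdc71l peak (chr12:32379709-32379761, plus strand, 3′ UTR, 8mer) had the highest mean, 1230, and ranked 14 among all peaks. It ran from 395.3 through a median of 645 to 1603 in WT and from 796 through 1766 to 2851 in G12D, so 3 of 6 G12D tumours lay above every WT tumour. The peak gave 70.9% of the signal of its gene's 8 peaks in WT and 73.4% in G12D.

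Tnrc6b encodes a GW182 protein, the partner of Argonaute that recruits the deadenylases. Its 8mer peak (chr15:80798767-80798813, plus strand, exon) ran from 131 through 539 to 1382 in WT and from 415 through 968 to 1877 in G12D. The groups overlap over most of their range, with a log2 fold change of 0.86 ± 0.58 (SE). It held 98.4% of the signal over the 2 peaks of the gene in WT.

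Ereg encodes epiregulin, a ligand of the EGF receptor. Its peak (chr5:91093341-91093397, plus strand, 3′ UTR, 7mer-m8) also has miR-19 and miR-130 family sites. It ran from 12.1 through 329 to 661 in WT and from 488 through 1138 to 1766 in G12D, with 5 of 6 G12D tumours above every WT tumour. Its log2 fold change of 2.84 ± 0.80 (SE, adjusted p = 0.108, limma) was 1.51 above the median of all peaks, and without WT replicates 5 and 6 it was 1.17, which is 0.79 above. DESeq2 gave an adjusted p of 0.0561.

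Ccnd1 encodes cyclin D1, which drives entry into S phase. Its peak (chr7:144934023-144934080, minus strand, annotated as exon, 7mer-m8) ran from 13.6 through 415 to 604 in WT and from 597 through 788 to 1641 in G12D. In all, 5 of 6 G12D tumours lay above every WT tumour, and the WT values under 100 were those of replicates 5 and 6. The log2 fold change was 2.32 ± 0.72 (SE, adjusted p = 0.108, limma), 1.00 above the median of all peaks, and without WT replicates 5 and 6 it was 0.89, which is 0.51 above.

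Map3k9 encodes a mixed-lineage kinase upstream of JNK. Its peak (chr12:81721900-81721954, minus strand, 3′ UTR, 7mer-m8) was highest among WT tumours in the 2 shallow libraries, at 775 and 745 in WT replicates 5 and 6, and lowest, at 83.3 to 175, in WT replicates 1 to 3. In G12D it ran from 183 through 772 to 2071. The 3 lowest WT values and the 2 lowest G12D values were thus those of batch 1.

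Trp53inp1, a p53-induced regulator of autophagy and cell death, has its peak in the 5′ UTR (chr4:11164337-11164393, plus strand, 8mer). It ran from 31.7 through 454 to 841 in WT and from 293 through 428 to 1289 in G12D. Ppp1r15b, the constitutive subunit that targets a phosphatase to eIF2alpha, had medians of 433 in WT and 467 in G12D for its 3′ UTR peak. In neither gene were the medians of the genotypes set apart, and both stood below the median of all peaks, by −0.34 and −0.30 on the log2 scale.

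Tgoln1, a protein of the trans-Golgi network, ran from 49.8 through 401 to 720 in WT and from 611 through 808 to 1433 in G12D. Tbc1d30, a Rab GTPase-activating protein, had medians of 268 in WT and 857 in G12D, and Unc5b, a netrin receptor, 267 and 579. The G12D medians were higher in all 3, with log2 fold changes of 0.54, 0.06 and 0.13 above the median of all peaks. Without WT replicates 5 and 6 the log2 fold change of Tgoln1 fell from 1.87 to 0.63, and that of Tbc1d30 from 1.38 to 0.34.

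**Figure D4:**
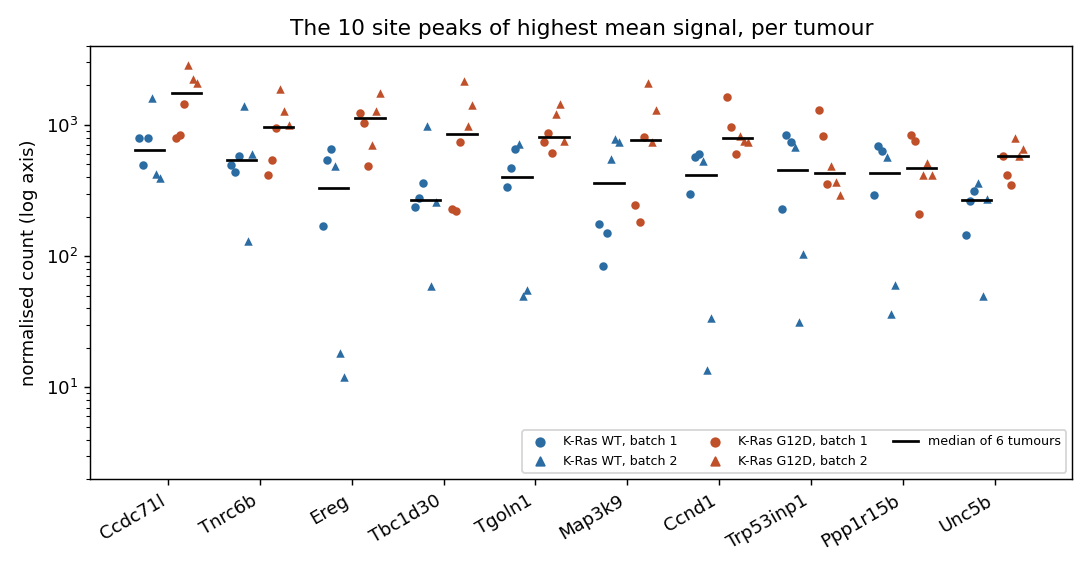
Normalised counts (log axis) of the 10 strongest site peaks in each of the 12 tumours, coloured by K-Ras genotype, with circles for batch 1, triangles for batch 2 and a bar at the median of 6 tumours. The lowest WT points of Ereg, Tgoln1, Ccnd1, Trp53inp1 and Ppp1r15b are replicates 5 and 6.

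Between genotypes, site peaks moved as other peaks did. In limma on log2(normalised count + 1) with batch as a covariate, none of the 378 members passed an adjusted p of 0.05, as none of the 7527 peaks tested did (0% called in either direction). At an unadjusted p under 0.05, 132 members (34.9%) were higher in G12D and 1 was lower, against 35.9% and 0.173% of all tested peaks, so the members' share is near the background. The median log2 fold change was 1.37 over the members and 1.33 over all tested peaks. Without WT replicates 5 and 6 the medians were 0.40 and 0.38, and 58 members were higher and 5 lower at an unadjusted p under 0.05, against 14.3% and 0.917% of all peaks. No member had an adjusted p under 0.05 there either, where 0.0399% of all peaks were called higher.

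The absence of calls did not hold in every setting. Without WT replicate 4, which had the highest summed signal of the WT libraries, limma called 190 members higher (50.3%) and 1 lower, against 45.1% and 0.173% of all tested peaks. With a pseudocount of 5 limma called 19 higher and 1 lower, against 6.72% and 0.093%, with array weights 43 and 1, against 10.8% and 0.505%, and in batch 2 alone 11 and 0, against 3.11% and 0%. edgeR called 0 members, against 0.0531% higher and 0.0797% lower of all peaks. DESeq2 called 22 members higher and 3 lower of 372 with an adjusted p (5.91% and 0.806%), against 10.2% and 0.361% of all peaks. Without WT replicates 5 and 6 DESeq2 called 7 higher and 0 lower, against 2.11% and 0.16%. The authors' deposited table gives 20 higher and 2 lower of 372, against 9.92% and 0.355%. With size factors computed from the peaks themselves in place of the authors' factors, DESeq2 called 1 higher and 4 lower of 253, against 1.02% and 1.84% of all peaks, and the median log2 fold change of all peaks fell from 0.86 to 0.07. The size of most differences and the split of calls by direction therefore depend on the scaling, and fold changes are also given relative to the median of all peaks.

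In batch 1 the median log2 fold change was 0.55 over the members and 0.44 over all peaks, and in batch 2, which holds WT replicates 5 and 6, 2.07 and 2.24. In 4 members (1.06%), on Sema7a, Rapgef2, Tnfrsf23 and Akap7, every G12D tumour lay above every WT tumour, against 1.66% of all peaks. Of these, Rapgef2, Tnfrsf23 and Akap7 were chosen for this after their values were seen. Their peaks were in the G12D list alone, so they became peaks only through the genotype where they are high. By list, members in the G12D list alone had a median log2 fold change of 1.40 and those in both lists 1.28. All annotated peaks had 1.41 and 1.14. Without WT replicates 5 and 6 these medians were 0.38 and 0.44, against 0.40 and 0.36. The 2 members in the WT list alone had −0.97, and −1.36 without these libraries, against −0.45 and −0.28. By region, the 213 members in 3′ UTRs had a median of 1.35 and the 81 in exons 1.43, against 1.31 for all annotated peaks in each of these regions. Without WT replicates 5 and 6 both member medians were 0.48, against 0.36 for all 3′ UTR peaks and 0.40 for all exonic peaks. The 74 in introns had a median of 1.35, against 1.47 for all intronic peaks, and 0.05 against 0.40 without WT replicates 5 and 6. Intronic members stood far above other intronic peaks in WT replicates 2 and 3 and G12D replicates 1 and 2. What part that split by library has in these medians was not tested. The 8mer and 7mer-m8 members did not separate, with medians of 1.37 and 1.35, and 0.42 and 0.40 without WT replicates 5 and 6.

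**Figure D5:**
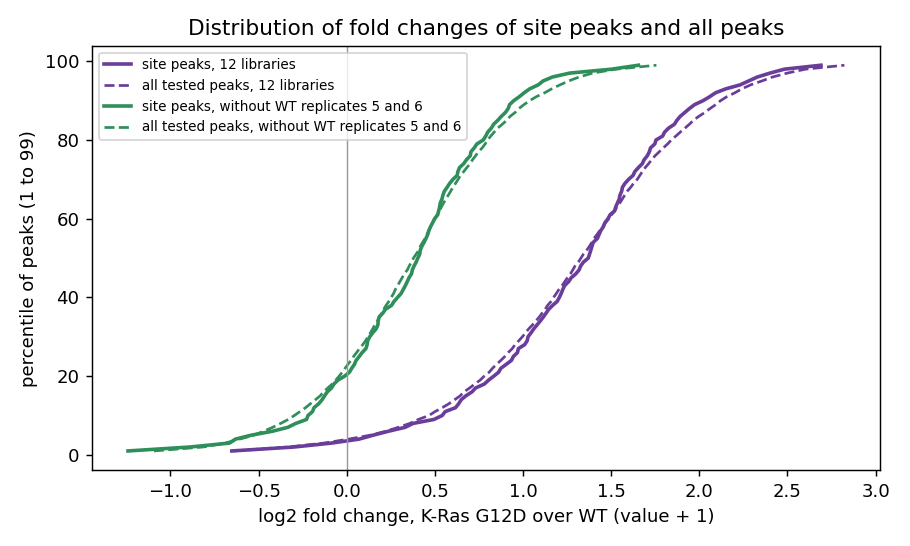
Percentiles 1 to 99 of the log2 fold change (G12D over WT, on normalised count + 1) for the site peaks (solid) and all tested peaks (dashed), with all 12 libraries and without WT replicates 5 and 6. Solid and dashed curves run together in both settings, with medians of 1.37 and 1.33 and then 0.40 and 0.38, and leaving out the 2 libraries moves both to the left.

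Within 198 genes that hold a member and another tested peak, the member could be compared with the gene's other peaks. These share its mRNA except where a peak is intronic. The median difference in log2 fold change, member minus the mean of the others, was −0.05 over 214 member peaks (quartiles −0.46 and 0.41), with 98 above and 116 below. Site peaks thus lay on both sides of the rest of their genes, as a description over peaks that share tumours, and a shift was not tested.

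Slc40a1, which encodes the iron exporter ferroportin, was the member of smallest p in limma among those with a mean of at least 20. Its 3′ UTR peak (chr1:45908281-45908340, minus strand, 7mer-m8) ran from 4.53 through 11.4 to 34.6 in WT and from 29.0 through 72.0 to 121 in G12D. Here 5 of 6 G12D tumours lay above every WT tumour, and the highest WT value was that of replicate 4. The log2 fold change was 2.47 ± 0.66 (SE, adjusted p = 0.108, limma), or 1.14 above the median of all peaks. DESeq2 gave an adjusted p of 0.00335, 0.00105 without WT replicates 5 and 6, and it was the 1 member called higher with size factors from the peaks.

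Greb1, an oestrogen-induced gene, had its 7mer-m8 peak in an exon (chr12:16702328-16702383, minus strand). It ran from 0 through 6.46 to 21.2 in WT and from 15.2 through 40.8 to 50.7 in G12D, 1.05 above the median of all peaks on the log2 scale (DESeq2 adjusted p = 0.0142, and 0.0817 without WT replicates 5 and 6). Efnb1, an ephrin ligand, ran from 7.23 through 10.7 to 36.0 in WT and from 24.2 through 47.4 to 76.8 in G12D (DESeq2 adjusted p = 0.0216, and 0.0400 without WT replicates 5 and 6). In both peaks the highest WT library alone reached into the G12D range.

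Plekhm1, an adaptor of lysosome fusion, had medians of 31.5 in WT and 94.2 in G12D (DESeq2 adjusted p = 0.0269, 0.0817 without WT replicates 5 and 6). Plekhm1 holds a second site peak, with a deposited log2 fold change of 0.99 against 1.39 for the one described. The authors' deposited values do not call that second peak. Myo10, an unconventional myosin of filopodia, ran from 0 through 30.8 to 85.9 in WT and from 79.5 through 114 to 141 in G12D (DESeq2 adjusted p = 0.0415, and 0.0513 without WT replicates 5 and 6). Sema7a, a membrane-anchored semaphorin, ran from 0 through 37.3 to 65.7 in WT and from 67.1 through 103 to 182 in G12D, with no overlap (DESeq2 adjusted p = 0.0529, and 0.0817 without WT replicates 5 and 6). Without these 2 libraries the log2 fold change in limma fell from 2.71 to 1.19 for Myo10 and from 2.69 to 0.95 for Sema7a. None of these 3 was called by limma on the 12 libraries, where each had an adjusted p above 0.05.

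A neighbouring pair of decoy receptors for the death ligand TRAIL, Tnfrsf22 and Tnfrsf23, is named here after its values were seen. Each has a 7mer-m8 site in its 3′ UTR, at chr7:143634889-143634945 and chr7:143665898-143665958 on the minus strand. Tnfrsf22 had medians of 6.58 in WT and 25.3 in G12D, and Tnfrsf23 2.73 and 21.9, with DESeq2 adjusted p-values of 0.00574 and 0.00335 and, without WT replicates 5 and 6, 0.0228 and 0.0244. They are close paralogs, so reads may be shared between them, and the pair should be read as 1 observation. The Tnfrsf23 peak was in the G12D list alone.

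Arhgef26, a guanine nucleotide exchange factor for RhoG, had the most negative fold change. Its 3′ UTR peak (chr3:62460418-62460469, plus strand, 7mer-m8) ran from 28.0 through 144 to 2080 in WT and from 2.31 through 60.7 to 121 in G12D. The groups overlap, and the 2 highest values, 2080 and 716, were those of WT replicates 6 and 4. The log2 fold change was −2.26 ± 0.74 (SE, adjusted p = 0.108, limma), 3.58 below the median of all peaks, with −1.78 in batch 1 and −2.74 in batch 2. DESeq2 gave an adjusted p of 0.0220, and 0.0864 without WT replicates 5 and 6.

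Klf15, a Krüppel-like transcription factor, had its 7mer-m8 peak in an exon with medians of 90.2 in WT and 27.0 in G12D, 2.65 below the median of all peaks. Its DESeq2 adjusted p was 0.0502 with the authors' size factors and 0.0142 with size factors from the peaks, where Tbx3, Gdf11 and Wnk3 were called lower too. Lamp2, a lysosomal membrane protein, was split by library and not by genotype, with 85.2 and 144 in WT replicates 2 and 3, 114 and 78.1 in G12D replicates 1 and 2, and at most 7.83 in the other 8. Blnk, a B-cell adaptor, had its peak in an intron and was likewise high in the same 4 libraries, from 39.1 to 77.7, and at most 25.4 elsewhere. Both peaks were thus high in 2 tumours of each genotype. Lamp2 holds a second site peak, with a deposited log2 fold change of −0.71 against −0.88 for the one described.

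Published targets of the family were taken from 7 lists of 97 genes in all, of which 59 held a peak and 22 a site peak. The 22 site peaks, 1 per gene at the highest mean, included 20 in 3′ UTRs and 13 with an 8mer. None was called by limma. DESeq2 called 2, both higher in G12D (Ccnd2 and Arid4b), where it called 10.2% of all peaks higher and 0.361% lower. In the authors' deposited table the Ccnd2 peak was called and the Arid4b peak was not. At an unadjusted p under 0.05 in limma, 12 of the 22 were higher and none lower, against 35.9% and 0.173% of all tested peaks. Of the 22 peaks, 14 lay above the median fold change of all peaks, and 16 without WT replicates 5 and 6. Their median was 0.20 above that of all peaks, and 0.21 above without WT replicates 5 and 6. These genes were chosen as published targets, and whether their peaks moved apart from other peaks was not tested.

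Of the cell cycle list, 11 genes held a peak and 4 a site peak: Cdkn1a, E2f1, Ccnd1 and Ccnd2. Cdkn1a, the inhibitor p21, ran from 18.1 through 39.0 to 119 in WT and from 25.5 through 52.3 to 66.7 in G12D, 1.11 below the median of all peaks. Ccnd2, cyclin D2, ran from 0 through 18.8 to 34.1 in WT and from 30.1 through 50.2 to 73.8 in G12D, with a log2 fold change of 2.30 ± 0.76 (SE; DESeq2 adjusted p = 0.0299, and 0.0822 without WT replicates 5 and 6). The transcription factor E2f1 was near the floor, with medians of 3.53 and 12.7. The peaks described for the 2 cyclins and E2f1 thus stood above the median of all peaks, and that of p21 below it. Ccnd1 holds a second, lower site peak, with a deposited log2 fold change of 0.89 against 1.55 for the one described.

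In the TGF-beta and BMP list 9 genes held a peak and 2 a site peak. Tgfbr2, the type 2 receptor, has an 8mer in a peak that also holds miR-19 and miR-130 family sites, and its medians were 13.3 in WT and 22.8 in G12D. A second Tgfbr2 site peak had a deposited log2 fold change of 0.74, against 1.07 for the one described. Zfyve9, the Smad anchor SARA, had medians of 21.5 and 48.6. Tgfbr1, Smad4, Smad5, Smad6, Smad7, Acvr1 and Acvr1b held peaks but none with an 8mer or 7mer-m8 site for the family.

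In the survival and PI3K list none of the 7 genes with a peak held a site peak. Among them were the pro-apoptotic Bcl2l11, the anti-apoptotic Mcl1, the Akt phosphatases Phlpp1 and Phlpp2, the PI3K subunit Pik3r1 and the transcription factor Foxo3. Over all lists, 37 genes held a peak and no site peak, and 3 of these, Rb1, Btg2 and Acvr1b, had a weaker 7mer-A1 or 6mer site of the family in a peak. No peak with a site is no evidence that a gene is not bound, because a site can lie outside the called peaks.

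Autophagy genes with a site peak were Ulk1, the kinase that starts autophagy, and Atg16l1, which helps to lipidate LC3. Ulk1 had medians of 21.7 in WT and 40.9 in G12D and stood 0.61 below the median of all peaks, and Atg16l1 had 42.3 and 94.6 and stood 0.02 above it. Map3k5, the stress kinase ASK1, was the 1 site peak of the MAPK list, with 9.06 through 89.4 to 211 in WT and 96.8 through 212 to 410 in G12D.

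The transcription list gave 6 genes. Stat3, which transmits cytokine signals, ran from 9.06 through 77.5 to 157 in WT and from 89.4 through 135 to 319 in G12D. Ncoa3, a nuclear receptor coactivator, had medians of 5.04 and 22.9 and the highest value of the 22 relative to all peaks, 1.09 above, and 0.41 above without WT replicates 5 and 6. Zbtb7a, Arid4b, Irf1 and Klf9 had means between 12.3 and 20.1 and relative values from −0.68 to 0.35. Of these, the Arid4b peak was called higher by DESeq2 (log2 fold change 1.38, adjusted p = 0.04996), and not without WT replicates 5 and 6 (adjusted p = 0.234). The authors' deposited DESeq2 adjusted p for it was 0.0503, so it was not called there. At these low means 1 read was a large step in WT replicates 5 and 6, where it was worth 4.53 and 2.41. It was worth 0.482 to 2.31 in the other mRNA libraries.

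The list of membrane, matrix and secreted proteins gave 7 genes, of which 6 are described. Epha4, an ephrin receptor with 2 sites in its peak, ran from 36.2 through 124 to 331 in WT and from 127 through 266 to 491 in G12D, at the median of all peaks (−0.01). App, the amyloid precursor protein, ran from 4.53 through 88.3 to 203 in WT and from 90.3 through 152.1 to 328 in G12D, 0.54 above the median of all peaks. F3, tissue factor, had medians of 23.8 and 49.4, 0.98 above the median of all peaks. Without WT replicates 5 and 6 App stood 0.20 and F3 0.47 above it. Lif, a cytokine, had medians of 57.3 and 142. Abca1, a cholesterol exporter, had 15.1 in WT and 13.3 in G12D and stood lowest, 0.80 below the median of all peaks. Pkd1, a polycystin, lay at the median of all peaks (−0.00).

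Ago2, the protein pulled down and the gene that carries the Halo tag in every mouse of the study, held 3 site peaks on chromosome 15. The 3′ UTR peak (7mer-m8, with sites for miR-103/107 and the miR-130 family) had medians of 12.5 in WT and 21.96 in G12D. The 2 exonic peaks had medians of 16.5 and 15.3 (7mer-m8) and of 4.71 and 12.7 (8mer). Tmcc3, an endoplasmic reticulum protein, held 3 peaks with an 8mer within its 3′ UTR on chromosome 10. Their medians were 84.7 and 89.1, 40.0 and 129, and 15.0 and 16.8, so peaks of 1 UTR differed among themselves in both level and fold change, and none of the 6 was called by limma.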

How the data were processed

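Per the submitters' processing notes, STAR 2.5.2b and DESeq2 were used with mm10 and GRCm38; peak calling and counting steps were not given in the sources used here. All of the deposited signal values are read counts divided by a size factor per library by the authors. In all 7730 peaks and 596 miRNAs 100% of values were whole multiples of 1 read (within 0.001 reads), and 1 read was worth 0.482 to 4.53 in the mRNA libraries. Log2 fold changes, p-values and adjusted p-values marked as deposited are the authors'; the score column of the deposited peak lists was used for nothing.

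Members and lists were chosen with earlier results of these data known. limma 3.58.1 (trend) was run on log2(value + 1) with batch, over 7527 peaks whose mean reached 5 (all 378 members passed) and 284 miRNAs whose mean reached 10; p-values were adjusted by Benjamini and Hochberg's method over each whole table. The fit was also run on simulated counts with the same dispersion, 0.5, for every peak. That setting did not model the many zero values of WT replicates 5 and 6, so it does not show how the fit performs with them. The pseudocount bears on the change of peaks with low or 0 values: the members' median was 1.37 with 1 and 0.92 with 5. DESeq2 1.42.0 and edgeR 4.0.16 on the recovered whole reads were alternatives. Depth was 30607 to 974013 reads per mRNA library and 289462 to 471587 per miRNA library, so members with few reads are imprecise. Named peaks were the 10 highest means, the 6 smallest p and the 4 most negative fold changes with a mean of at least 20, the highest site peak of each listed gene, genes with 3 or more site peaks, and up to 5 of smallest DESeq2 adjusted p in each direction. Input-control libraries were not analysed here. Some list members are not reported here.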

Additional observations from a re-analysis of the deposited data

Results flagged for a closer look

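A tumour was set apart where its gap to the next value took more of the range of its group of 6 than Dixon's critical value at 95% allows. Of 122 groups tested, 11 were flagged, and chance flags about 1 in 20 groups.

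In 8 of the 11 the high sample was WT replicate 4, whose values were 1603 for the Ccdc71l peak (next 797), 989 for Tbc1d30 (next 358), 34.6 for Slc40a1 (next 15.7), 36.0 for Efnb1 (next 17.05), 63.2 for Ulk1 (next 25.7), 35.1 for Pkd1 (next 13.3), 27.7 for Ncoa3 (next 7.83) and 17.3 for E2f1 (next 4.89). That library had the highest summed signal over all peaks of the 6 WT libraries, 380326, and what part this had in the values was not tested.

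The Ccnd1 peak stood at 1641 in G12D replicate 1, with the next G12D value at 961. The Arhgef26 peak stood at 2080 in WT replicate 6, with the next WT value at 716. The share of signal in site peaks was 3.15% in WT replicate 5, with the next WT value at 6.25%, and 56.1% of the site peaks had no read in that library.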

How the results depend on the processing

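The count of site peaks called higher in G12D, 0 in limma, was 19 with a pseudocount of 5, 22 in DESeq2 with the deposited size factors, 1 in DESeq2 with size factors of the peak table, 43 with array weights, 11 in batch 2 alone and 7 in DESeq2 without WT replicates 5 and 6, a setting added after the data were seen. The count called lower was 1, 3, 4 and 1 in the first 4 of these. Of all peaks, in the same order, 6.72%, 10.2%, 1.02%, 10.8%, 3.11% and 2.11% were called higher. The shares called lower in the first 4 were 0.093%, 0.361%, 1.84% and 0.505%. Leaving out each tumour in turn gave 0 to 190 higher and 0 to 1 lower, with the high end without WT replicate 4. In that setting 50.3% of the members were called higher, against 45.1% of all tested peaks. The cause was not tested. The family miRNA sum differed on the sum of log2 values, by −1.78 (exact permutation p = 0.00866), where the scarce miR-20b-5p weighs as much as the abundant members. With 3′ UTR peaks alone the signal share was 9.88% in WT and 9.57% in G12D. Of 1463 values of single peaks and miRNAs under the alternatives, 1394 kept their side of the threshold and 69 newly passed it. None of these peaks and miRNAs passed in the main fit, so none could lose a call, and the count is no measure of stability.

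Same-numbered tumours did not all deviate together: their correlations ran from −0.52 to 0.31 in the mRNA libraries, where 1 of 6 numbers correlated best with its own, and from −0.36 to 0.30 in the miRNA libraries, where 3 of 6 did. The numbers were therefore not taken to pair the tumours. With the replicate number as a block, 0 site peaks were called in either direction, the median log2 fold change stayed 1.37, 0 family miRNAs were called, and the miRNA sum differed by −316.0 (exact permutation p = 0.719). Depth limits WT replicates 5 and 6, where many site peaks had no read, and low peaks throughout.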
